A study of Caenorhabditis elegans with 2 samples.

Results

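The 797 X chromosome peaks described here were chosen by their signal and by overlap, from 5854 peaks on X among 30000 in a list called on both replicates pooled. A peak was kept when its signal value in the pooled list was 14 or more and it overlapped by at least 1 bp a peak in the list of each replicate. They are called X members below, and the 3105 autosomal peaks chosen in the same way are called autosomal members. The assay was chromatin immunoprecipitation and sequencing (ChIP-seq) of UNC-62 in whole fourth-stage (L4) larvae of Caenorhabditis elegans. There was 1 group of 2 biological replicates, so no condition could be compared with another. The worms were of strain OP602, a stable transgenic line in which UNC-62 carries GFP and FLAG at its C terminus, and sexes were mixed. A whole larva pools every tissue, so a peak cannot be placed in a cell type. The lists hold no read counts, so depth is unknown, and the number of peaks limits the precision of each share.

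UNC-62 belongs to the Meis and Homothorax homeodomain family, whose proteins bind DNA together with PBC and Hox partners and pattern tissues as the animal develops. The worm X chromosome is itself under special control. In animals with a pair of X chromosomes, a condensin-based dosage compensation complex is loaded at recruitment sites on X and lowers transcription along the chromosome. Those recruitment sites carry the MEX motif, whose centre holds the letters GCGCAGGG. Sequences read from DNA around the summits, which the selection did not use, are therefore shown first.

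Of the 10 strongest X members, 6 held GCGCAGGG in the peak. The sites of the 9 X members that held this sequence and were also in the authors' irreproducible discovery rate (IDR) list are printed here because they carry the main difference from the autosomes. Of the 81 autosomal members in that list, 1 held GCGCAGGG in the peak. Each line gives the nearest protein-coding start and 28 bases in WBcel235 (ce11), read 5′ to 3′ on the strand named, with GCGCAGGG in capitals.
F19H6.5 (chrX:12363029-12363056, minus strand): tgagttatagGCGCAGGGtcttgaggat
nspc-17 (chrX:14525890-14525917, minus strand): attgcctatcGCGCAGGGacagatgtgg
cest-16 (chrX:6296538-6296565, plus strand): tttacatttgGCGCAGGGggtcaccata
cest-16 (chrX:6296566-6296593, plus strand): gataggtatcGCGCAGGGaagatttacc
C41A3.2 (chrX:5429580-5429607, plus strand): attaaatttaGCGCAGGGaggacgccgt
xol-1 (chrX:8036391-8036418, minus strand): attttttatcGCGCAGGGacgtatgtcg
xol-1 (chrX:8036425-8036452, plus strand): tttttccatcGCGCAGGGaacccttcga
Y41G9A.17 (chrX:2997113-2997140, minus strand): taaatttatcGCGCAGGGaggaagtagc
Y41G9A.17 (chrX:2997288-2997315, minus strand): agatcgtatcGCGCAGGGaggaagtatg
F22H10.2 (chrX:16682162-16682189, minus strand): agaaaacatcGCGCAGGGaacatcaaat
W02H3.3 (chrX:11094115-11094142, minus strand): gttttatatcGCGCAGGGagcttatgca
W02H3.3 (chrX:11094216-11094243, minus strand): ggaaccattcGCGCAGGGacacctcact
F20B6.9 (chrX:4209256-4209283, minus strand): tgccgctatcGCGCAGGGacacctcttt

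Most of these lines share letters outside the capitals. Over the 19 different matches in X members, the base just before GCGCAGGG was C at 13, the base before that was T at 14, and the base just after was A at 14. The reference X chromosome held 81 matches of GCGCAGGG on either strand, 4.57 per Mb, against 233 on the autosomes, 2.82 per Mb. On X, 33 of the 81 lay in a peak of the pooled list and 19, or 23.5%, in an X member. On the autosomes 23 of the 233 lay in a pooled peak and 3, or 1.29%, in an autosomal member. With TC before and A after, letters that were chosen after these flanks were seen, X held 13 matches and 11 of them lay in X members, 10 of these in IDR peaks. Of the other 68 matches on X, 8 lay in X members, or 11.8%. The autosomes held 2 matches of the longer sequence, and 0 of them lay in an autosomal member. Because TC and A were read from the matches in X members, that choice favoured a higher share in X members.

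The 4 X members outside this set among the 10 strongest held the sequence with 1 base changed, within 100 bp of the summit. These sites were looked for after the exact matches were known. They are printed with the 8 matched bases in capitals, and each substitution gives the base of GCGCAGGG, its position counted from 1 at the 5′ end, and the base at the site. The fbxb-58 peak held 3 such sites, and the one shown is the one with TC before and A after.
F55G7.5 (chrX:11937531-11937558, plus strand, G1A): ggaggtacaaACGCAGGGaagagaatta
fbxb-58 (chrX:1627096-1627123, plus strand, C4A): ttctcccatcGCGAAGGGatactttcgc
ZK899.6 (chrX:9465873-9465900, plus strand, C4A): gaaaatttagGCGAAGGGagagatactg
bet-2 (chrX:10568835-10568862, minus strand, C4G): atggcaaagaGCGGAGGGacaggctaac

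Thus all 10 of the strongest X members held GCGCAGGG with at most 1 mismatch within 100 bp of the summit, against 1 of the 10 strongest autosomal members. Among IDR peaks the counts were 16 of 31 on X and 7 of 81 on the autosomes. Outside the IDR list the shares lay much closer, 33 of 766 X members (4.31%) and 114 of 3024 autosomal members (3.77%). In the other pooled peaks they were 3.18% on X and 2.73% on the autosomes. These counts were chosen after the data were seen, and the splits by rank and by IDR list are a description with no test. Over all members, up to 1 mismatch was found at 49 of 797 on X and 121 of 3105 on the autosomes. This difference, also looked at after the data were seen, passed (odds ratio 1.62, two-sided Fisher's exact test, adjusted p = 0.0333). Its comparison with the other pooled peaks, given further below, did not pass.

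The windows reaching 100 bp to either side of the summits of the other 4 of the 5 strongest X members show how the sequences lie in a whole site. The window of the strongest, at F19H6.5, overlaps an untranslated region and is not printed. All are on the plus strand, with exact matches of GCGCAGGG and of the Meis core TGACAG, on either strand, in capitals.
F55G7.5 (chrX:11937458-11937658): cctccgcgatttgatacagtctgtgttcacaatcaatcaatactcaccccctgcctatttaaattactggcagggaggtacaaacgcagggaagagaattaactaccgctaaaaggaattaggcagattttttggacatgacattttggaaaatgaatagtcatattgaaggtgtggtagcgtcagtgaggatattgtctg
nspc-17 (chrX:14525809-14526009): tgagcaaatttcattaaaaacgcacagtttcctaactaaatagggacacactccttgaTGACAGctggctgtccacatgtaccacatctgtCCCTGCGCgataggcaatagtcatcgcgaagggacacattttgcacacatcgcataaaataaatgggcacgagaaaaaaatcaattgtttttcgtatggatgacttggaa
cest-16 (chrX:6296516-6296716): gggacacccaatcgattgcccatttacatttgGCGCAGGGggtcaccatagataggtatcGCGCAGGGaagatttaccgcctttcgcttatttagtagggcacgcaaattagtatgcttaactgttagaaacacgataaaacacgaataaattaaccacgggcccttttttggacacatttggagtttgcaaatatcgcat
fbxb-58 (chrX:1627033-1627233): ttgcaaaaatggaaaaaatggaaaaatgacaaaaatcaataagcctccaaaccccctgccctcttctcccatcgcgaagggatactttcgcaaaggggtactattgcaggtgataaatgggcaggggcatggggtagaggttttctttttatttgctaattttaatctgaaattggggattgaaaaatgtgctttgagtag

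Of these windows, only that of nspc-17 held TGACAG. Of the 16 X members with GCGCAGGG in the peak, the one at nspc-17 was also the only one with TGACAG within 100 bp of the summit.

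The authors' signal value ranks peaks within a list, and its scaling is not given in the sources used here. In the pooled list the X members ran from 14.0029 to 71.3 with a median of 17.4, and the autosomal members from 14.0001 to 105 with a median of 17.5. Both sets were cut at the same value of this signal, so these figures describe the selection. In the list of replicate 1 the overlapping peaks of X members ran from 6.61 to 35.9 with a median of 9.27, and in that of replicate 2 from 5.03 to 41.4 with a median of 8.15. Of the 797, 495 had the higher value in replicate 1 and 302 in replicate 2, and separately made lists need not share a scale. The share higher in replicate 1 was 62.1% on X and 62.3% on the autosomes. Few X members were strong, with 219 at 20 or above and 39 at 30 or above, while 244 lay below 16. The threshold cut through a dense range, since the members just inside had signal values of 14.0029 at zmp-5, 14.0043 at gei-3 and 14.0073 at gst-36. Just outside were peaks at C15H9.9 with 13.9997, at C44E12.1 with 13.99 and at F52B10.3 with 13.9868. The summit of a pooled peak lay a median of 18 bp from that of the overlapping peak in replicate 1 and 28 bp in replicate 2. Because the lists resolve neighbours differently, 72 X members shared a replicate 1 peak with another X member and 74 shared a replicate 2 peak, so members are not all separate sites.

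The selection kept 13.6% of the X peaks of the pooled list and 12.9% of the autosomal ones. The signal threshold was reached by 1492 X peaks, and those that lacked an overlap were 266 with replicate 1 only, 413 with replicate 2 only and 16 with neither. Overlap with both replicates but a signal below 14 was found at 452 X peaks. X carried 20.4% of all members and 44.98 per Mb, against 37.6 per Mb on the autosomes together, 44.04 on chromosome III and 34.4 on chromosome IV, the lowest. Annotated protein-coding genes were sparser on X, 154 per Mb against 209 per Mb on the autosomes. All 31 X peaks of the IDR list were X members. Along X, cut into 10 stretches of equal length, the number of members was lowest in stretch 1, with 55, and highest in stretch 8, with 100. As a share of the pooled peaks there, members were lowest in stretch 4, with 11.1%, and highest in stretch 10, with 16.2%.

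**Figure D1:**
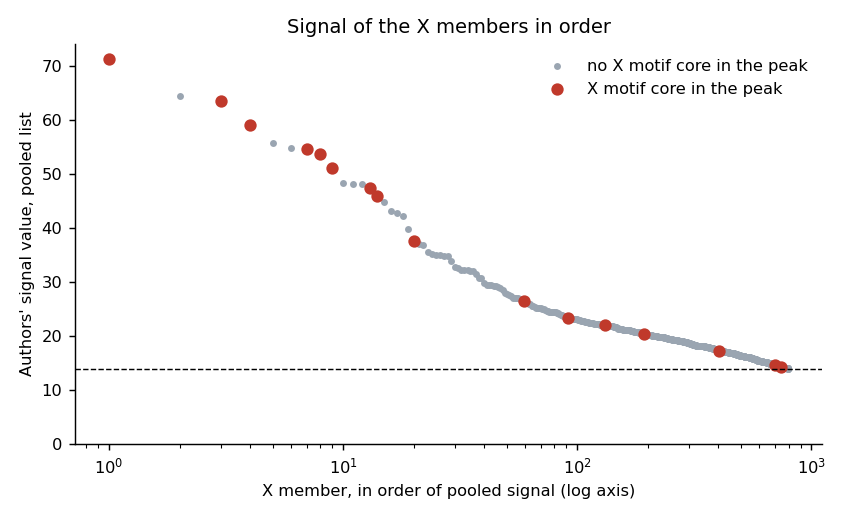
Each point is 1 of the 797 X members, placed by its order of pooled signal (x axis, log scale) and its signal value in the pooled list (y axis, authors' unit). Red points hold GCGCAGGG, the X motif core, in the peak, the dashed line marks the threshold of 14, and 6 of the first 10 points are red.

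The strongest X member, at F19H6.5, had a pooled signal of 71.3, with 35.9 in replicate 1 and 36.9 in replicate 2, and ranked 5 in the whole pooled list. Its summit was intergenic, 1775 bp downstream of the start. The site at nspc-17, a gene of a nematode-specific peptide family, had 63.6 in the pooled list, 20.4 in replicate 1 and 40.9 in replicate 2. Its summit lay 728 bp upstream of the start, and the nearest GCGCAGGG was centred 5 bp away. The site at F19H6.5 ranked 3 in the list of replicate 1 and 13 in that of replicate 2, and the site at nspc-17 ranked 47 and 7.

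The site named after cest-16, a carboxylesterase family gene, lay in an intron of mom-1, which encodes a Porcupine-like protein needed to secrete Wnt ligands. Its values were 59.1 in the pooled list, 32.3 in replicate 1 and 30.6 in replicate 2. The site named after C41A3.2 lay in an exon of pks-1, a polyketide synthase gene, 15250 bp from the nearest protein-coding start, with 54.6 pooled, 25.4 and 31.9. It was the strongest exonic X member and the only exonic one among the 31 in the IDR list. The site at xol-1, the switch gene that responds to the number of X chromosomes and directs sex determination and dosage compensation, lay 4952 bp upstream of the start. Its values were 53.7 pooled, 34.1 in replicate 1 and 23.5 in replicate 2, and it held 2 matches of GCGCAGGG on opposite strands.

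The site in an intron of Y41G9A.17 held 2 matches, with signal values of 51.1 pooled, 21.01 in replicate 1 and 34.3 in replicate 2. The intergenic site at F22H10.2 had 47.4 pooled, 25.5 and 29.2, and its match was centred 106 bp from the summit, outside the 100 bp searched in the comparison of shares. The intergenic site at W02H3.3 also held 2 matches, with 45.97 pooled, 23.6 and 26.1. The intergenic site at F20B6.9 was the weakest of the 9, with 37.7 pooled, 14.2 and 23.995. The IDR list holds the strongest X members, so high values at these 9 follow from the choice.

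The other 7 X members with GCGCAGGG in the peak had pooled signals between 14.3 and 26.5 and were not in the IDR list. They lay at T24D8.6, col-185, C35B8.3, svh-5, lin-14 and R04E5.9, where adjacent peaks shared 1 match and the same replicate peaks. Over all 16 the median signal was 41.8 in the pooled list, 17.3 in replicate 1 and 23.8 in replicate 2. Over the 781 without a match the medians were 17.3, 9.22 and 8.10. Strong peaks without an exact match were present too, up to 64.5 at F55G7.5, and the groups overlapped over most of their range.

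**Figure D2:**
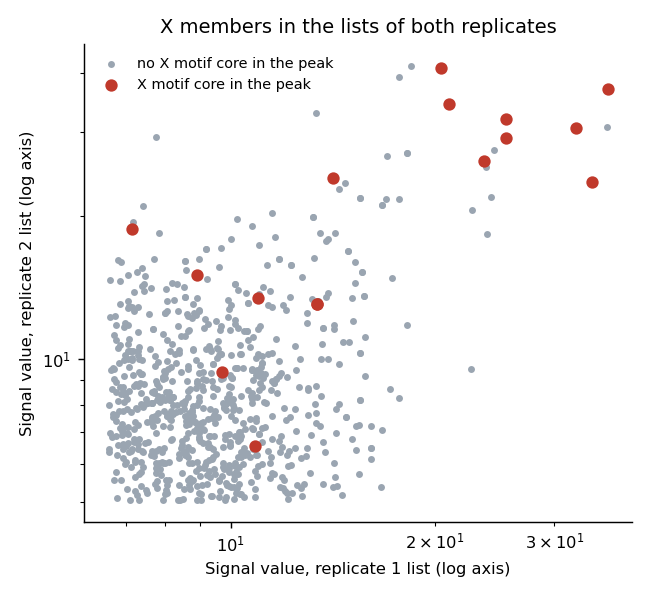
Each point is an X member, with the signal value of the overlapping peak in the list of replicate 1 (x axis, log scale) and replicate 2 (y axis, log scale), in the authors' unit. Red points hold the X motif core in the peak, with medians of 17.3 and 23.8, and most lie toward the upper right while several lie among the grey points, whose medians are 9.22 and 8.10.

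Within 100 bp of the summit, GCGCAGGG was present at 11 of the 797 X members, 1.38% (95% exact Clopper-Pearson interval 0.691 to 2.46%), and at 0 of the 3105 autosomal members. For that count of 0 the 95% exact interval reached up to 0.119%. The odds ratio had a lower 95% bound of 9.88 (Fisher's exact test, two-sided, adjusted p = 1.95e-07 over 8 sequences). This p-value compares sites of the same libraries, and neighbouring sites are not independent. The 8 sequences were chosen with earlier results of these data known, so p-values for them are not independent evidence. Dropping the overlap with replicate 1 gave 13 of 1210 X peaks and 2 of 4750 autosomal peaks, and dropping replicate 2 gave 11 of 1063 and 1 of 4184. In both cases the difference kept its direction and passed the test.

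The difference was also larger than the same difference in the other pooled peaks. There GCGCAGGG was found at 8 of 5057 X peaks, 0.158%, and 11 of 21041 autosomal peaks, 0.0523%, an odds ratio of 3.03. The ratio of both odds ratios, with 0.5 added to each count, was 29.5 (likelihood ratio test of the interaction, adjusted p = 0.00234; exact test of equal odds ratios, added after the data were seen, adjusted p = 0.0149). By the likelihood ratio test over n = 30000 peaks it no longer passed at 7.49, without the overlap with replicate 1 (adjusted p = 0.0623), or at 1.38, with up to 1 mismatch allowed (adjusted p = 0.855). The size of the ratio depended on the window searched, being 48.2 within 50 bp of the summit and 6.82 in the whole peak. In the whole peak 16 of 797 X members and 3 of 3105 autosomal members held GCGCAGGG, so no count was 0 there. The interaction passed with both windows. The result for GCGCAGGG rested on the strongest sites. Without the members in the IDR list, 3 of 766 X members and 0 of 3024 autosomal members held GCGCAGGG (Fisher's exact test, adjusted p = 0.0658). The interaction did not pass either (n = 30000 peaks, adjusted p = 0.744).

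**Figure D3:**
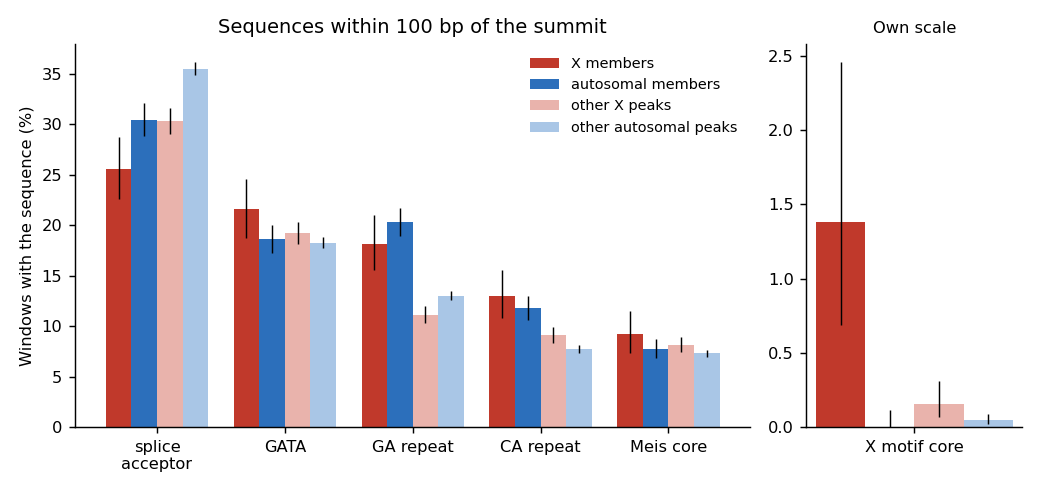
Bars give the share of windows (y axis, percent) that hold each sequence drawn within 100 bp of the summit, for X members, autosomal members and the other pooled peaks of each, and lines are 95% exact intervals over peaks. The tested sequences TGATNNAT and TGATTGAC are not drawn. The right panel has its own scale, on which the X motif core stands at 1.38% of X members and 0 of the autosomal members; in the left panel the largest gap between X and autosomal members is that of the splice acceptor sequence, 25.6% against 30.4%.

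The sequences tied to UNC-62 and its partners did not separate X from the autosomes. The Meis core TGACAG lay within 100 bp of 74 X summits, 9.28%, and 7.79% of autosomal member summits (odds ratio 1.21 with a 95% interval of 0.909 to 1.599, adjusted p = 0.313 by a two-sided Fisher's exact test). Among the other pooled peaks it was present at 8.17% on X and 7.33% on the autosomes. The Hox and PBC site TGATNNAT was present at 16.1% and 17.3% of members, with an odds ratio between 0.733 and 1.13, and a longer PBC and Meis sequence, TGATTGAC, at 1.38% and 0.998%. The interval for TGACAG thus admits odds on X that are lower than, equal to or moderately above those on the autosomes.

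Windows of 61 bp around 5 summits show the surroundings of the core where it lies nearest the summit. They were chosen in order of that distance, leaving out windows that overlap an untranslated region. The plus strand is printed, and capitals mark TGACAG or its reverse complement.
C29F7.3 (chrX:13420203-13420263): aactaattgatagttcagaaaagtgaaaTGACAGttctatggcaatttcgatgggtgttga
osm-11 (chrX:17419956-17420016): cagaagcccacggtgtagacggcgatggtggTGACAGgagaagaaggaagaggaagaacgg
clec-86 (chrX:7140343-7140403): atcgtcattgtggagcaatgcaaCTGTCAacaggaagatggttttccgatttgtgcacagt
vap-2 (chrX:10792702-10792762): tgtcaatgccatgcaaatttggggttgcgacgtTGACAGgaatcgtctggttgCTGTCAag
C05A9.2 (chrX:10847022-10847082): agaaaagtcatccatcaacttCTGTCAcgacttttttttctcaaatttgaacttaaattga

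By that choice the match was centred between 0.5 and 6.5 bp from the summit at these 5 sites. Only the one at osm-11 was strong, with a pooled signal of 42.9, and the other 4 ran from 18.5 to 20.6. Across all X members the density of TGACAG, in matches per 1000 peaks and 100 bp, was 55.2 within 25 bp of the summit, 40.2 from 25 to 50 bp and 55.2 from 50 to 100 bp. Farther out it was 41.4 from 100 to 150 bp and 26.4 from there to the edge of the peak. In the other X peaks the density was 41.5 within 25 bp and 39.8 at the edge, and in autosomal members 46.4 and 38.1. The bins of X members rest on 16 to 44 matches each and were not tested.

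Of the other sequences tested, only TTTCAG, which resembles the worm splice acceptor, differed. It was present at 25.6% of X members and 30.4% of autosomal members (odds ratio 0.786 with a 95% interval of 0.656 to 0.941, adjusted p = 0.0314 by the same exact test). The other pooled peaks had the same difference, with an odds ratio of 0.792, and the call was lost with a window of 50 bp, at signal thresholds of 20 and 30 and without the IDR peaks. The GATA sequence TGATAA, which can overlap TGATNNAT, was present at 21.6% and 18.6% (exact test, adjusted p = 0.166), and the CA repeat ACACAC at 13.05% and 11.8% (adjusted p = 0.387). The GA repeat GAGAGA was present at 18.2% of X members and 20.3% of autosomal members (exact test, adjusted p = 0.313). In the other pooled peaks, also within 100 bp, GAGAGA was present at 11.2% on X and 13.02% on the autosomes, below the members of each. With the window shortened to 50 bp, it was present at 8.41% of X members and 12.2% of autosomal members (odds ratio 0.660, exact test, adjusted p = 0.00884). At 50 bp the interaction against the other pooled peaks did not pass for GAGAGA, and in the whole peak its odds ratio was 1.003.

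Summits of X members lay less often in promoters and more often between genes than those of autosomal members. A promoter here spans the 1000 bp before and the 200 bp after a protein-coding start. A summit outside promoters was called exonic where it touched an exon, then intronic, then within a non-coding gene, and otherwise intergenic. Promoters held 230 X members, 28.9% (95% exact interval 25.7 to 32.1%), against 35.7% of autosomal members (odds ratio 0.730, 0.613 to 0.868, Fisher's exact test, two-sided, adjusted p = 0.000678 over 5 classes). Intergenic sequence held 220, 27.6%, against 18.8% (odds ratio 1.64, 1.37 to 1.97, exact test, adjusted p = 5.35e-07). Exons held 148, 18.6%, against 22.7% (odds ratio 0.775, exact test, adjusted p = 0.0182). Introns held 182, 22.8%, against 20.03%, and non-coding genes 17, 2.13%, against 2.67%, and neither difference passed (exact test, adjusted p = 0.107 and 0.452). The promoter and exon calls were lost at signal thresholds of 20 and 30, and the intergenic call at 20. The exon call was also lost without the overlap with replicate 1 (odds ratio 0.850, exact test, adjusted p = 0.0548), with a stricter overlap (adjusted p = 0.0572) and with a wider promoter (adjusted p = 0.479). The intron difference passed under 4 settings, among them without the overlap with replicate 1 (odds ratio 1.24, exact test, adjusted p = 0.00720). Summits in coding sequence were counted apart from these classes, with 130 on X, 16.3%, against 25.1%.

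These differences were not particular to the members. In the other pooled peaks the odds ratio of X to the autosomes was 0.726 for promoters and 1.62 for intergenic sequence. For none of the 5 classes was a dependence of the X difference on passing the selection detected (likelihood ratio test, n = 30000 peaks, adjusted p = 0.955 for each). The median distance from summit to nearest protein-coding start was 1392 bp for X members and 1039 bp for autosomal members, and 1476 and 1120 bp for the other peaks. The part played by the lower gene density of X was not tested. The GC content within 100 bp of the summit was close, with a median of 37.8% on X and 37.3% on the autosomes.

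**Figure D4:**
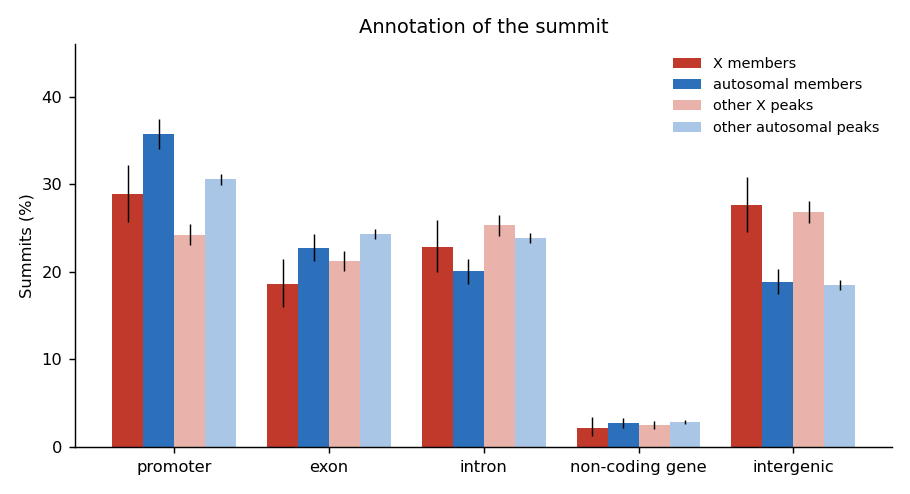
Bars give the share of summits (y axis, percent) in each annotation class for X members, autosomal members and the other pooled peaks of each, and lines are 95% exact intervals over peaks. Intergenic sequence holds 27.6% of X members and 18.8% of autosomal members, and the paler bars of the other peaks stand in the same order.

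The strongest X members were intergenic more often than the rest. Of the 39 with a pooled signal of 30 or more, 20 were intergenic, 51.3%, and 12 in promoters, 30.8%. Among the autosomal members at that signal the shares were 22.6% and 47.0%. Of the 31 X members in the IDR list 18 were intergenic, 58.1%, 8 lay in promoters, 4 in introns and 1 in an exon, while 17.3% of the 81 autosomal members in that list were intergenic. GCGCAGGG lay within 100 bp of 8 of the 39, or 20.5%, and of 0 of the autosomal members at that signal. GAGAGA was present at 38.5% of the 39 and at 46.1% of those autosomal members, so this repeat was more frequent at strong sites on both. These bins use the signal that chose the members and are given as a description, with no test.

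**Figure D5:**
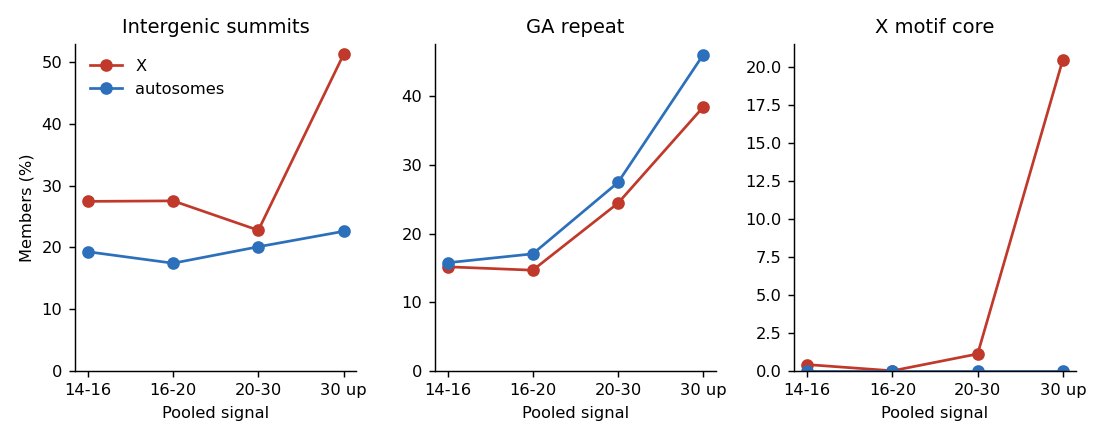
Panels give the share of members (y axis, percent, each panel on its own scale) that are intergenic, hold the GA repeat or hold the X motif core within 100 bp of the summit, by bin of pooled signal (x axis), for X and the autosomes. Above a signal of 30 the X line stands at 51.3% for intergenic summits and 20.5% for the X motif core, against 22.6% and 0 for the autosomes.

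The 25 strongest X members also held sites without GCGCAGGG in the peak, and those near genes of known function are described next. The summit at bet-2, a bromodomain protein gene, lay 400 bp upstream of the start, with 48.4 in the pooled list, 13.4 in replicate 1 and 32.8 in replicate 2. A summit in an intron of ldb-1, whose product is a cofactor of LIM domain transcription factors, had 48.2 pooled, 23.8 and 25.3. Near aakg-3, which encodes an AMP-activated kinase gamma subunit, the summit had 48.2 pooled, 24.5 and 27.5. It also lay from 1854 to 1906 bp upstream of the annotated starts of the microRNA gene mir-34.

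The intergenic summit 2436 bp upstream of hda-4, a class II histone deacetylase gene, had 39.8 pooled, 17.7 in replicate 1 and 21.7 in replicate 2. That 4864 bp upstream of egrh-1, an EGR family zinc finger gene, had 37.1 pooled, 15.2 and 15.95. The promoter summit 355 bp upstream of puf-9, a gene of the Pumilio family of RNA-binding proteins, had 35.2 pooled, 16.98 and 26.7. Each of these 3 peaks was among the first 1000 in the list of both replicates.

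The replicates differed widely at sma-9, which encodes a Schnurri family cofactor of TGF-beta signalling. Its strongest summit, 3049 bp upstream of the nearest start, had 35.6 pooled and 29.2 in replicate 2, where it ranked 33. In replicate 1 the value was 7.75 and the rank 9412. The summit in an intron of nhr-14, a nuclear hormone receptor gene, had 35.1 pooled, 11.5 in replicate 1 and 20.3 in replicate 2. The remaining sites among the 25 strongest lay at F55G7.5, fbxb-58, ZK899.6, serp-1.1, F43E12.1, K02D3.1, F56C3.1 and osm-11, with pooled signals from 36.98 to 64.5. The site at fbxb-58 had 55.8 pooled, 18.4 in replicate 1 and 41.4 in replicate 2.

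Some genes carried several summits. The largest run, with gaps of at most 2000 bp, held 6 members in 2533 bp at osm-11, which encodes a secreted co-ligand of Notch receptors, with signals from 14.5 to 42.9. Neighbours in this run shared replicate peaks, so it holds fewer separate sites in each replicate's list. At lin-14, a heterochronic gene that sets the timing of larval stages, 5 members fell within 4014 bp. Over its 20.3 kb and the 2000 bp upstream, lin-14 had 8 member summits, 6 of them inside the gene, the highest number of any protein-coding gene on X. This order counts summits, and some neighbours at lin-14 shared replicate peaks, so lin-14 also holds fewer separate sites in each replicate's list. Its summit of highest signal, in an intron, had 29.3 in the pooled list, 9.66 in replicate 1 and 17.1 in replicate 2, with TGACAG 19.5 bp from the summit. After it came scd-1 with 6 and ldb-1, him-4, sma-9 and nhr-27 with 5 each, and nhr-27 spans 103 kb. Clustering was not unusual for X, since 94 of 796 gaps between neighbouring members were within 2000 bp, 11.8%, against 14.8% on the autosomes.

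Of 2731 protein-coding genes on X, 374 had a member summit in the window from 2000 bp before a start to 500 bp after it, a share of 13.7%. The same share was 11.5% on the autosomes, with 1990 of 17242. Against that share, heterochronic genes and microRNAs had a summit at 2 of 7 X genes. At ain-1, which encodes a GW182 family protein of the microRNA silencing complex, the signal was 32.9 pooled, 16.7 in replicate 1 and 21.04 in replicate 2, 971 bp upstream. At lin-14 the strongest summit in the window had 25.7 pooled, 8.99 and 12.6. Of 74 X microRNA genes 10, or 13.5%, had a summit in the window, so microRNA genes stood at the share of protein-coding genes. The highest were mir-34 with 48.2 and mir-2221 with 36.98, both from the intergenic summits named after aakg-3 and F56C3.1, and mir-392 followed with 23.5.

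Genes of the Notch pathway had a summit at 2 of 5, osm-11 with 31.5 pooled, 15.6 in replicate 1 and 15.2 in replicate 2, and adm-4, a metalloprotease gene, with 14.9 pooled, 6.77 and 7.39. The TGF-beta list had 1 of 3, sma-9, whose strongest summit in the window had 23.1 pooled, 7.48 and 14.9. The Wnt list had 0 of 4, although the summit in an intron of mom-1 was among the strongest. The list of Ras signalling and vulva genes had 1 of 8, the fibroblast growth factor receptor gene egl-15 with 16.9. Sex determination and dosage compensation genes had 0 of 6, and xol-1 was added when the window was widened to 5000 bp upstream. A summit in an intron of sex-1, 875 bp downstream of the start, lay outside both windows, with 21.1 pooled, 12.01 in replicate 1 and 5.27 in replicate 2. These lists are small, and 1 gene moves each share by a large step.

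Nuclear hormone receptor genes had a summit at 7 of 27, 25.9%, from 14.1 at nhr-48 to 33.98 at nhr-3, with nhr-14, nhr-17, nhr-25, nhr-28 and nhr-40 between them. The summit at nhr-3 had 15.5 in replicate 1 and 21.7 in replicate 2, and it was in the IDR list. The stronger summit of nhr-14, with 35.1 pooled and also in that list, lay 796 bp downstream of the start and so outside the window, while its summit within the window had 15.1. A summit in an intron of nhr-137, 1116 bp downstream of the start, was also outside the window, with 32.1 pooled, 11.6 and 18.1. The one at nhr-25, the worm relative of fly Ftz-F1 and a regulator of molting, had 18.6 pooled, 11.8 and 6.72. Muscle genes had 4 of 15, 26.7%. They were the troponin genes tni-1, tnt-3 and unc-27, with pooled signals of 16.7, 19.3 and 15.3, and egl-15, which is on both lists. None of these 4 was strong, and only the summit at unc-27 had TGACAG within 100 bp.

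Homeobox genes had a summit at 2 of 27, 7.41%. They were ceh-21, of the ONECUT class, with 17.001 pooled, 8.97 in replicate 1 and 5.23 in replicate 2, and vab-3, the worm Pax6 gene, with 14.4 pooled, 7.83 and 8.71. The window of 5000 bp added ceh-40, which encodes a PBC protein, and ceh-41. Neuropeptide and insulin-like peptide genes had 3 of 37, 8.11%, namely ins-39, nlp-67 and nlp-76, with signals from 19.2 to 21.1. These shares stand below and those of the receptor and muscle lists above the 13.7% of all X genes, and no test was made of any list.

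Transfer RNA genes are common sites of ChIP signal in worms for many unrelated factors. One lay within 500 bp of the summit at 34 X members, 4.27%, and of 0.966% of autosomal members. In the other pooled peaks the shares were 1.98% and 0.566%. X carries 276 annotated tRNA genes and the autosomes together 336. For small nucleolar RNA genes the order was the opposite, with 1 X member, 0.125%, and 51 autosomal members, 1.64%, and X carries 33 such genes against 313. The part of gene number in these shares was not tested.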

How the data were processed

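Peak lists from 1 group of 2 biological replicates were analysed. Per the labels, chromatin was sheared by sonication and the lists are in ce11 and ce10. The deposited signal value of each peak was made by the authors, per the deposited readme texts, against a control alignment of another series, not analysed here. Not given in the sources used here are the aligner, the peak caller and the cut-off of the IDR. In ce11 the lists held 15466 peaks in replicate 1, 24524 in replicate 2, 30000 pooled and 114 after IDR thresholding.

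Summits were annotated with Ensembl release 115 (WBcel235, the coordinates of ce11), and sequences come from the RefSeq WBcel235 genome. All coordinates count from 1. Sequences were searched on both strands. Shares of X and autosomal members were compared by Fisher's exact test, and interactions by a likelihood ratio test over all pooled peaks, with Benjamini-Hochberg adjustment over 5 classes or 8 sequences and a threshold of 0.05. Intervals are 95% exact intervals that cover counting error over peaks only. No test treats the replicates as samples of a condition, since there was 1 group. The share test was tried on simulated data with independent peaks and larger shares than that of GCGCAGGG, so the trial does not cover that sequence.

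The members, the 10 gene lists, the sequences and the alternatives were chosen with earlier results of these data known. Named genes were those nearest the 25 X members of highest signal, list genes on X with a member summit in their window, and the strongest X member of each class. Genes with clustered summits, microRNA genes, members with GCGCAGGG and those with 1 mismatch among the strongest were added after their values were seen. Tests ran in SciPy 1.17.1 with pandas 2.3.3 and NumPy 2.4.6 under Python 3.11.15, and figures in matplotlib 3.10.9.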

Additional observations from a re-analysis of the deposited data

How the results depend on the processing

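The X share of members was 20.4%, and 20.7, 20 and 25.3% at signal thresholds of 10, 20 and 30. X members numbered 219 at 20 and 39 at 30, and 1063 to 1210 without 1 replicate. Of the annotation classes, 3 differed between X and autosomes, against 0 at a threshold of 20 and 1 at 30, where the promoter odds ratio was 0.774 and 0.504 and no longer passed. The intergenic call was lost at 20 (1.503, exact test, adjusted p = 0.111), the exon call under 5 settings, and an intron call was gained under 4. Of the sequences, 2 differed, against 1 at 20, 1 at 30 and 0 without the IDR peaks. For GCGCAGGG the X minus autosomal share was 1.38 percentage points, 1.01 to 1.03 without 1 replicate and 0.392 without the IDR peaks (exact test, adjusted p = 0.0658). Its ratio of odds ratios was 29.5, 7.49 to 9.02 without 1 replicate (0 to 1 interactions passing), 4.64 without the IDR peaks (0 passing) and 1.38 with 1 mismatch. By window, this ratio was 48.2 within 50 bp and 6.82 in the whole peak, and the interaction passed with both. X genes near members numbered 374, and 646 with 5000 bp upstream, 569 with the whole gene, 621 by nearest start, 116 at 20 and 17 at 30.

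Odds ratios that were not called turned over in some settings. Introns gave 0.985 at 20 and 0.624 at 30, and non-coding genes 1.35 at 20. TGACAG gave 0.660 at 30 and 0.957 within 50 bp. TGATNNAT gave 1.30 at 30. TGATTGAC gave 0.664 at 20, 0 at 30 and 0.926 in the whole peak. GAGAGA gave 1.003 in the whole peak. ACACAC gave 0.524 at 30 and 0.925 within 50 bp, and TGATAA 0.829 at 20. The cause was not tested. Interactions other than that of GCGCAGGG changed direction in places without passing, and were followed as counts of calls only, a choice made after they were seen. In ce10 the same selection gave 994 X peaks, which were not annotated. No paired analysis was possible because there was 1 group. Depth is unknown, so its part in these differences was not tested.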
